A study of Mus musculus with 4 samples.

Results

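Expression of the tumour necrosis factor (TNF) superfamily, the ligands and receptors through which immune cells send costimulatory, survival and death signals to each other, was measured in murine CD8+ T cells grown in vitro and set against that of thymic CD8+ cells. The members were all probes of the array, controls aside, whose gene name begins with Tnfrsf (receptors) or Tnfsf (ligands). This rule found 49 probes for 35 of the 28786 gene names on the array, which holds 41174 probes. By current names 4 of these genes are called otherwise: Tnfrsf7 is Cd27, Tnfsf7 is Cd70, Tnfrsf19l is Relt and Tnfsf5ip1 is Psmg2. Psmg2 encodes a chaperone of proteasome assembly and is no member of the family, so that 34 genes with 47 probes remain, 22 of them receptors (33 probes) and 12 ligands (14 probes).

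The cultured cells were grown from 100000 sorted Lin-Sca1+CD117+ bone marrow cells of B6 mice aged 6 to 8 weeks. They were kept for 35 days on OP9-DL1 stromal cells, a marrow-derived line made to carry Delta-like 1, a ligand of Notch, with Flt3 at 5 ng/ml and IL7 at 1 ng/ml in medium with 20% serum. The thymic cells came from C57Bl/6 mice aged 4 to 5 weeks, both kinds were sorted as CD8+ cells with high T cell receptor beta, and neither received a treatment. There were 2 RNA preps of each kind on 4 arrays of 2 colours, so that each thymic prep (Cy3) met each in vitro prep (Cy5). Array 1 paired thymic prep 1 with in vitro prep 1, array 2 thymic prep 1 with in vitro prep 2, array 3 thymic prep 2 with in vitro prep 1 and array 4 thymic prep 2 with in vitro prep 2. Dyes were not swapped, so effects of the dye, of donor age and of culture cannot be told apart from each other. The preps are called biological replicates but are not tied to separate animals, and the p-values therefore measure the spread between these preps.

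Ligands of this family are mostly made as trimers on the surface of a cell, and each trimer draws receptor chains together. Receptors with a death domain (Tnfrsf1a, Tnfrsf10b, Tnfrsf21, Tnfrsf25 and Fas) recruit adaptors such as Tradd and Fadd, and most of the others bind TRAF proteins directly and pass the signal to NF-kB. In the thymus, RANK ligand, CD40 ligand and lymphotoxin from developing T cells act on medullary epithelium, and in peripheral CD8+ cells 4-1BB, OX40, GITR and CD27 support expansion and survival after antigen is seen.

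Promoter sequences are shown for the receptor with the largest decrease (Tnfrsf25), the most increased ligand (Tnfsf11), and the only genes whose windows held a match to the NF-kB consensus (Tnfrsf9 and Tnfrsf8). Windows of 300 bases, from 250 bases before to 50 bases after a start site, were available from RefSeq (build GRCm38.p6) for 26 of the 34 genes, with 30 windows in all. They were searched on both strands for the NF-kB consensus, for the AP-1 motif TGANTCA and for the RUNX motif TGTGGT, and matches are in capitals. All windows are written 5' to 3' in the direction of the gene. Tnfrsf25 has a window at chr4:152115684-152115983 (plus strand) and another, 3' of it, at chr4:152116093-152116392. Tnfrsf9 has windows at chr4:150919905-150920204 and chr4:150927749-150928048 (plus strand). The Tnfrsf8 window is chr4:145315115-145315414 and that of Tnfsf11 chr14:78307994-78308293, both on the minus strand.
Tnfrsf25 start site 1: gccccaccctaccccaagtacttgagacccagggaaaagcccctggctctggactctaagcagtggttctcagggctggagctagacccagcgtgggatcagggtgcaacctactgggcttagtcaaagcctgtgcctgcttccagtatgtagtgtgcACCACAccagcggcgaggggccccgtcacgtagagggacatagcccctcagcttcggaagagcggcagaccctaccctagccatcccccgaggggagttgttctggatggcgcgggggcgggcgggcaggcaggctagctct
Tnfrsf25 start site 2: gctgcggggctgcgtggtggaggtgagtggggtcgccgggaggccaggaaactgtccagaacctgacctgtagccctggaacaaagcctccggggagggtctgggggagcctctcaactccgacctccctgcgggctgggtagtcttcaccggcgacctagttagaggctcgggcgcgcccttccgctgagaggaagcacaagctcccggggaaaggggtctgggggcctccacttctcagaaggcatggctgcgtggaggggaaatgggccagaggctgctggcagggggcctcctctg
Tnfrsf9 start site 1: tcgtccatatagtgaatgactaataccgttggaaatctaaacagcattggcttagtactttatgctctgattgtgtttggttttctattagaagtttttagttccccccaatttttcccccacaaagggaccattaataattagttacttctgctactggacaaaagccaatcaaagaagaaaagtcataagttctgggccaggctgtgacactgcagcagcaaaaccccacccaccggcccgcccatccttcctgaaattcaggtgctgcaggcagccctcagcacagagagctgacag
Tnfrsf9 start site 2: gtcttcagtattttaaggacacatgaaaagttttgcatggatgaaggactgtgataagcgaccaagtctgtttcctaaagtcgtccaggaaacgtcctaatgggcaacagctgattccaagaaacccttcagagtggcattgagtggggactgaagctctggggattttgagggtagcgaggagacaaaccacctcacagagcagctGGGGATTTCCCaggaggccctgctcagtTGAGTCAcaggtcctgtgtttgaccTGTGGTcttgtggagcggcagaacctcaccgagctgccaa
Tnfrsf8: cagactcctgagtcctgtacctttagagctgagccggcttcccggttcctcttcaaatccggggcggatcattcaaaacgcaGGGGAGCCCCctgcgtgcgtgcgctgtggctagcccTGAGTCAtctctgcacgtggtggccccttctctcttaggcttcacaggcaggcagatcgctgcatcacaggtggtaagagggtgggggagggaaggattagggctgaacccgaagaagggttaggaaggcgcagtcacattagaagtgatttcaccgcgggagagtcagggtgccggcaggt
Tnfsf11: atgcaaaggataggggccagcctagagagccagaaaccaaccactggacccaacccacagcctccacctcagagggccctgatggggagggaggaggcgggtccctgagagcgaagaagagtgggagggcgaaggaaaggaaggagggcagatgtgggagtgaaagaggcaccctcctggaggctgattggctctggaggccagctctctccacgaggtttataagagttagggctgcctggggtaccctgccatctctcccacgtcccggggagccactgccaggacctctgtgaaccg

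The Tnfrsf9 window at start site 2 held the NF-kB consensus in overlapping matches that begin 43 and 42 bases before the start, an AP-1 match 15 bases before it and a RUNX match 10 bases after it. The Tnfrsf8 window held an NF-kB match 168 bases and an AP-1 match 132 bases before the start. The first Tnfrsf25 window held a RUNX match 92 bases before the start, and its other window, the first Tnfrsf9 window and the Tnfsf11 window held none of the 3 motifs. Among the 30 windows of the family, 2 held the NF-kB consensus, 6 AP-1 and 6 RUNX. By gene these were 2, 5 and 6 of 26, since both windows of Tnfsf13b overlap and hold the same AP-1 match. Of all 32851 windows of this length in the table, 4.51% held NF-kB, 7.81% AP-1 and 16.8% RUNX. A match describes the letters in the window and is no measured binding site.

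A probe was tested where at least 1 channel stood well above background on each of the 4 arrays. Across the 27224 tested probes the median log2 difference, in vitro minus thymic, was 0.03. With limma and Benjamini-Hochberg adjustment, 52.2% of the tested probes were called, 26.6% higher and 25.6% lower in the in vitro-derived cells (adjusted p under 0.05), and 5.82% and 4.63% were called at least 2-fold higher and lower. With median centring of each array in place of the intensity-dependent loess, the median of all probes moved by 0.34. Then 19263 of the 27224 tested probes were called, and 83.6% of these calls were higher, against 14219 and 51.0% with loess. With the background model fitted on all spots 10134 were called. Fewer of all tested probes were also called without a thymic prep than with both. Between 63.7% and 70.9% of the spots of a channel were well above background. The CD8 T cell list (Cd8a, Cd8b1, Cd3e, Cd3d, Cd3g and Lck) was above background in both kinds. Its summed linear level was 418598 to 419532 in the thymic and 295962 to 336478 in the in vitro preps. Of its 6 tested genes 4 were lower and 1 higher in the in vitro cells, with a median log2 difference of -0.56. All marker lists are given with loess only, and their dependence on the normalization was not tested. Of the OP9 stroma list, 7 of 8 tested genes were higher in the in vitro cells (summed level 10224 to 12755 against 1399 to 1469), while Dcn and Lum were well above background on at most 1 array per channel. All 4 tested genes of the gamma-delta T cell list were higher (62312 to 66006 against 2459 to 2466). Among them Blk and Sox13 passed the filter only through the in vitro channel, where they were high, as did Postn of the stroma list. The part of stromal and gamma-delta T cells in the results that follow was not tested. In bulk RNA, fewer cells that express a gene and less RNA per cell cannot be told apart.

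Within the family more receptor probes were called lower than higher in the in vitro-derived cells. Of the few tested ligand probes more were higher than lower, but their counts varied with the processing. Under median centring the ligand median lay near that of all tested probes. Of 40 tested member probes (30 genes), 17 were lower, 10 higher and 13 were not called, with a median log2 difference of -0.12. Among the 27 tested receptor probes 15 were lower (55.6%, against 25.6% of all probes) and 5 higher (18.5%, against 26.6%), with a median of -0.28. Among the 11 tested ligand probes 1 was lower (9.09%, against 25.6% of all probes) and 5 were higher (45.5%, against 26.6%). The 5 higher probes were of Tnfsf11, Tnfsf13b and Tnfsf4. Of these 5, the Tnfsf4 probe and a Tnfsf13b probe passed the filter only through the in vitro channel, where they were high. With the filter on both channels 9 ligand probes were tested, of which 3 were higher and 1 lower, with a median of 0.06. Of all 24652 probes tested with that filter 13078 were called, and 49.6% of these calls were higher. The 6 probes that were at least 2-fold lower all belonged to receptors, and the 2 that were at least 2-fold higher were both of the ligand Tnfsf11. Under median centring the receptor counts became 12 lower and 9 higher, and the ligand counts 1 lower and 7 higher. Of all 27224 tested probes 19263 were then called, and 83.6% of these calls were higher. Receptors then had a median of -0.16 and ligands 0.41, against 0.37 for all tested probes. Without thymic prep 1 the receptor probes counted 12 lower and 2 higher and the ligand probes 0 lower and 2 higher, and without thymic prep 2 the counts were 12 and 1 for receptors and 0 and 3 for ligands. With the background model fitted on all spots they were 13 lower and 2 higher for receptors and 0 lower and 3 higher for ligands. With Agilent's processed signals, and likewise with the authors' deposited log ratios, the ligands counted 3 lower and 4 higher, and with 1 probe per gene 1 lower and 3 higher. Without in vitro prep 2 the ligand probes counted 2 lower and 5 higher, with a median of 0.05.

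**Figure D1:**
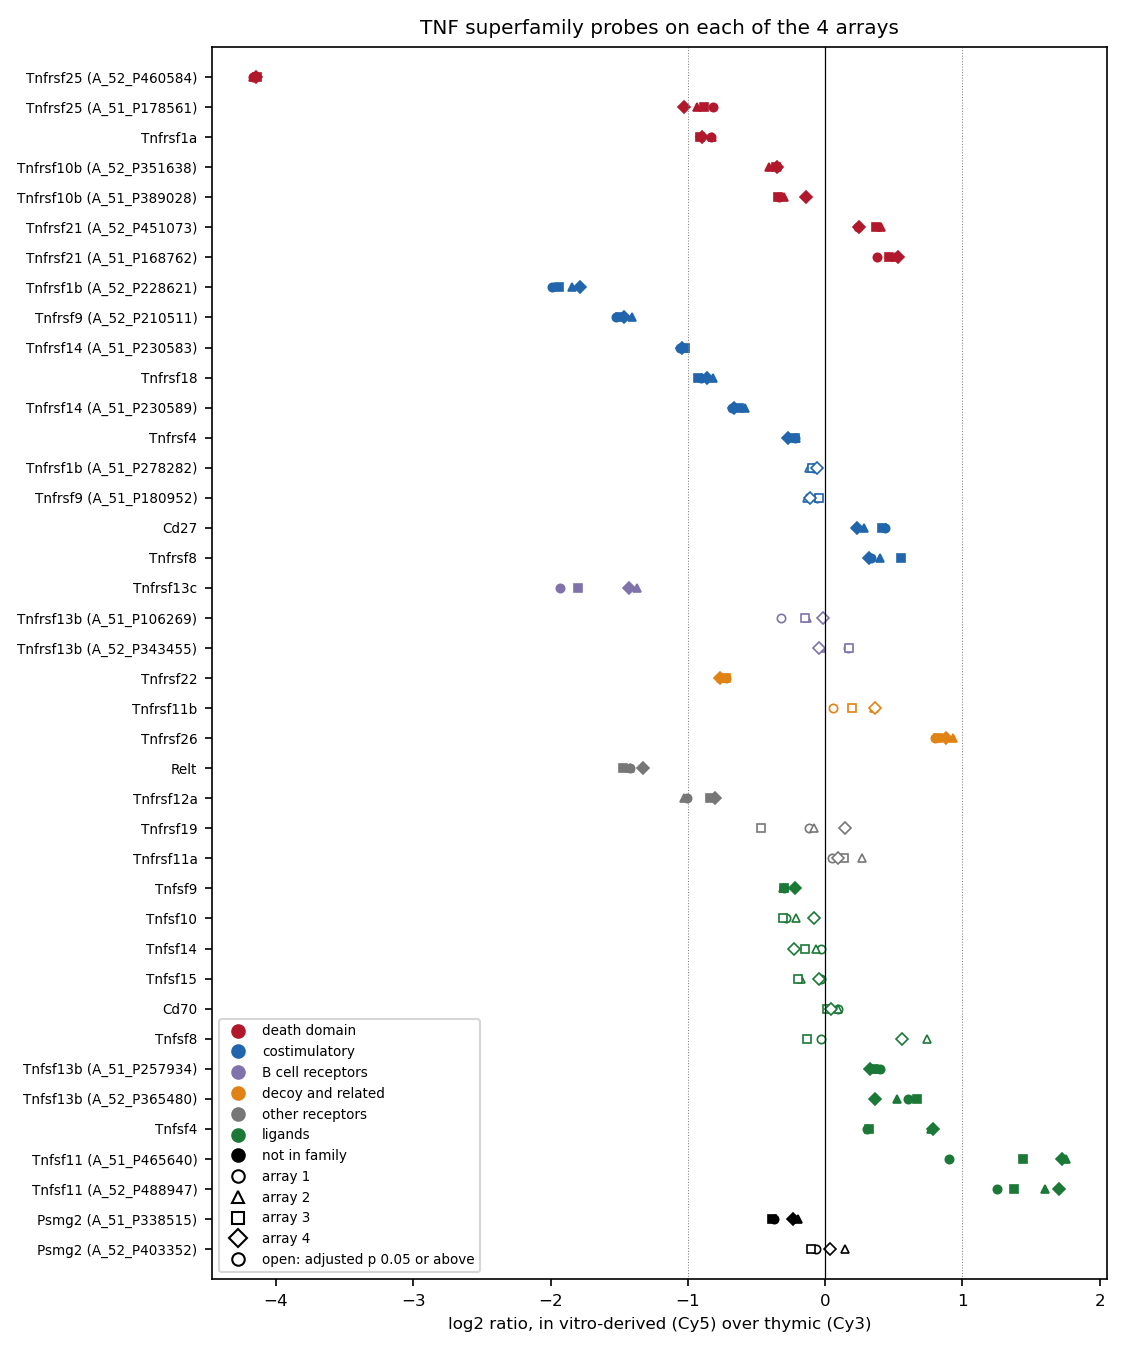
Log2 ratio of in vitro-derived (Cy5) over thymic (Cy3) signal for each of the 40 tested member probes (rows) on each of the 4 arrays (symbols), coloured by role, with filled symbols where the adjusted p was under 0.05 and dotted lines at 2-fold. The first Tnfrsf25 probe lies near -4.15 on all arrays, and both Tnfsf11 probes lie right of zero on all arrays.

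The death domain receptors held the largest difference of the family. Tnfrsf25, death receptor 3, a costimulator of T cells whose ligand is TL1A, gave log2 ratios of -4.17, -4.17, -4.14 and -4.14 on arrays 1 to 4 with probe A_52_P460584. Its level was 12.57 and 12.62 (log2 units) in the thymic preps and 8.50 and 8.38 in the in vitro preps. The preps did not overlap, and all 4 ratios lay within a narrow band. The log2 difference was -4.15 ± 0.06 (SE, n = 2 preps of each kind; adjusted p = 1.4e-05, limma), or 17.8-fold lower. The other Tnfrsf25 probe, A_51_P178561, which lies 3401 bases 5' of the first on the array's own coordinates, gave -0.82, -0.93, -0.88 and -1.03, a difference of -0.92 ± 0.07 (adjusted p = 4.9e-04). The mean over both probes was -2.53, and with Agilent's own processed signals the probe with the smaller difference moved to -1.75.

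Tnfrsf1a, TNF receptor 1, was lower by a log2 difference of -0.86 ± 0.06 over the 10 spots of its probe (adjusted p = 3.3e-04). Under median centring it lay at -0.16 and was not called (adjusted p = 0.12). Tnfrsf10b, the murine receptor of TRAIL, was lower on both tested probes, with log2 differences of -0.37 and -0.28. Tnfrsf21, death receptor 6, was higher on both tested probes, at 0.47 and 0.32. The Tnfrsf10b calls, and those of Tnfrsf21, were lost with the background model fitted on all spots (-0.30 and -0.21, and 0.38 and 0.24). With Agilent's processed signals they were larger (-0.73 and -0.54, and 0.83 and 0.60), and under median centring the Tnfrsf10b values were -0.21 and -0.16, the latter not called. Without either thymic prep both Tnfrsf10b probes lost their call (-0.24 to -0.38), as did the Tnfrsf21 probe with the smaller difference (0.31 and 0.32), and the other Tnfrsf21 probe lost it without thymic prep 2 (0.44). Under median centring 19263 of all 27224 tested probes were called, and 83.6% of these calls were higher. In all, 5 of the 7 tested death domain probes were lower and 2 higher, against 25.6% and 26.6% of all tested probes. They counted 3 lower and 2 higher under median centring, 3 lower and 0 higher with the background model on all spots, 3 and 1 without thymic prep 1 and 3 and 0 without thymic prep 2.

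**Figure D2:**
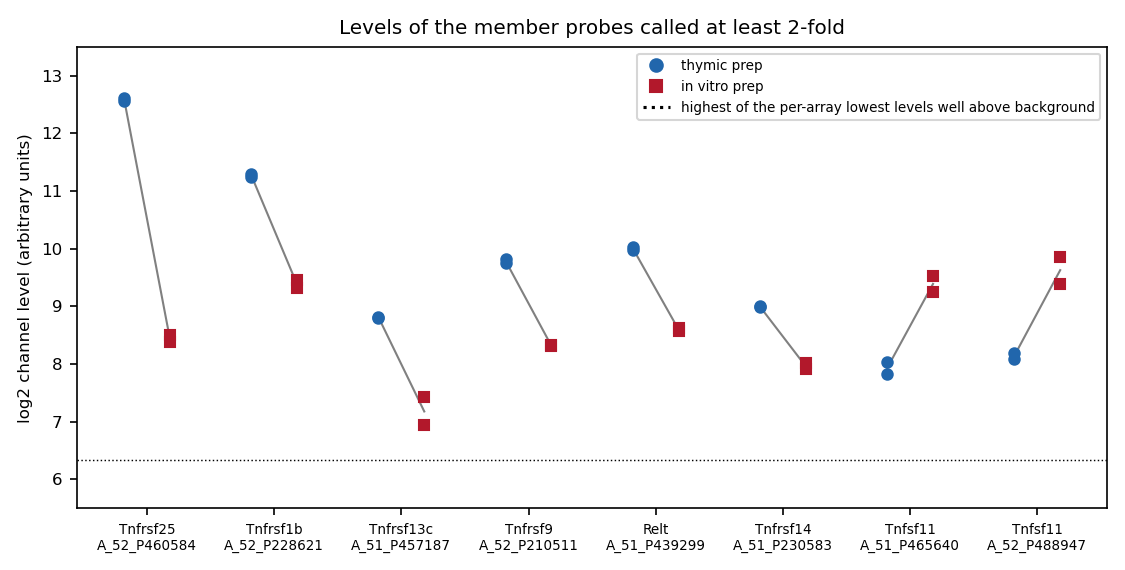
Log2 channel level of the 8 member probes called at least 2-fold, for each thymic prep (circles) and in vitro prep (squares), with a line between the means of the kinds. Levels are read within a probe, since probes differ in brightness, and the preps of the kinds do not overlap for any of the 8. The dotted line marks the highest of the lowest levels well above background on the arrays.

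Of 10 tested probes of costimulatory receptors (7 genes) 6 were lower and 2, those of Cd27 and Tnfrsf8, higher, with a median log2 difference of -0.43 (25.6% and 26.6% of all tested probes were lower and higher). Under median centring, where 19263 of 27224 tested probes were called, 83.6% of them higher, 5 of the 10 were lower and 4 higher. Their median was then -0.08, against 0.37 for all tested probes. Without thymic prep 1, and likewise without thymic prep 2, 5 were lower and 0 higher. Tnfrsf1b, TNF receptor 2, which carries no death domain and binds TRAF2, gave log2 ratios of -1.99, -1.84, -1.94 and -1.79 on probe A_52_P228621, which has 10 spots. The thymic preps had log2 levels of 11.30 and 11.25 and the in vitro preps 9.32 and 9.45, without overlap. The difference was -1.89 ± 0.08 (adjusted p = 6.8e-05), or 3.71-fold. A probe 9076 bases 5' of it on the array's coordinates, A_51_P278282, gave -0.08, -0.12, -0.09 and -0.06 and was not called (-0.09 ± 0.06, adjusted p = 0.26), and under median centring it was called higher (0.36). The mean over both probes was -0.99.

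Tnfrsf9, the inducible costimulator 4-1BB, whose window at start site 2 held all 3 motifs, gave ratios of -1.52, -1.41, -1.50 and -1.46 on probe A_52_P210511. Its levels were 9.76 and 9.82 in the thymic and 8.33 and 8.31 in the in vitro preps. The difference was -1.47 ± 0.06 (adjusted p = 7.6e-05), or 2.77-fold lower. Its other probe, A_51_P180952, lies 1065 bases 3' and was dim, with a net signal of 35.7 in Cy3 and 62.9 in Cy5. It gave -0.06, -0.13, -0.04 and -0.11 and was not called (-0.09 ± 0.06, adjusted p = 0.30), but was called lower under median centring (-0.22). The mean over both probes was -0.78.

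Tnfrsf14, the herpesvirus entry mediator HVEM, which binds LIGHT and the inhibitory receptor BTLA, was lower on both probes. Probe A_51_P230583 gave -1.06, -1.02, -1.02 and -1.04, and A_51_P230589, 53 bases away, gave -0.68, -0.58, -0.63 and -0.67. The differences were -1.04 ± 0.06 (adjusted p = 1.6e-04) and -0.64 ± 0.06 (adjusted p = 6.9e-04), and thymic and in vitro preps did not overlap on either. Under median centring the first lay at -0.62, and with Agilent's processed signals the second lay at -1.17.

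Tnfrsf18 (GITR) and Tnfrsf4 (OX40), costimulators that regulatory T cells carry at high level, differed by -0.88 ± 0.06 and -0.23 ± 0.06 on the log2 scale (adjusted p = 3.3e-04 and 0.024). Both directions rested on the normalization: under median centring Tnfrsf18 lay at 0.047 and was not called, and Tnfrsf4 was called higher (0.39). Tnfrsf4 also lost its call without thymic prep 1 (-0.25) and without thymic prep 2 (-0.21). Of the regulatory T cell list, Il2ra, Ctla4 and Ikzf2 were higher and Gpr83 lower among 5 tested genes, and Foxp3 was well above background on 3 of 4 arrays in each channel and was not tested. The summed level of that list was 8336 to 8580 in the thymic and 6828 to 8260 in the in vitro preps, and its part in these results was not tested.

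Cd27, a costimulatory receptor that thymocytes carry from early stages, was higher by 0.34 ± 0.08 (adjusted p = 0.017). It lay at 1.30 under median centring, and its call was lost without thymic prep 1 (0.32) and without thymic prep 2 (0.36). Tnfrsf8 (CD30) was higher by 0.40 ± 0.07 (adjusted p = 5.4e-03). With Agilent's processed signals it lay at 1.06. Its call was lost with the background model on all spots (0.29), without thymic prep 1 (0.44) and without thymic prep 2 (0.37).

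Of the receptors of BAFF and APRIL, which keep B cells alive, Tnfrsf13c was lower. Tnfrsf13c, the BAFF receptor, gave log2 ratios of -1.93, -1.37, -1.80 and -1.43. The arrays with in vitro prep 1 were the lower ones, and the levels were 8.82 and 8.81 in the thymic preps and 6.94 and 7.42 in the in vitro preps. The difference was -1.63 ± 0.16 (adjusted p = 8.2e-04), or 3.10-fold. Of 6 tested genes of the B cell list 1 was higher (Blnk, 1.24) and 1 lower (Cd79b, -0.43). Its summed level was 3601 to 3607 in the thymic and 2941 to 3305 in the in vitro preps, and its part in the Tnfrsf13c difference was not tested.

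Tnfrsf13b (TACI), which binds BAFF and APRIL, gave -0.32, -0.13, -0.14 and -0.01 on probe A_51_P106269 and 0.17, -0.03, 0.18 and -0.05 on probe A_52_P343455. Neither was called (-0.15 ± 0.09 and 0.07 ± 0.09, adjusted p = 0.21 and 0.56). The first was called lower with Agilent's processed signals (-0.54) and the second higher under median centring (0.75). Tnfrsf17 (BCMA), the receptor of plasma cells, was on no array well above background.

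Among the decoy receptors and their neighbours, Tnfrsf22, a TRAIL receptor without a death domain, was lower (-0.74 ± 0.06, adjusted p = 4.4e-04; -0.36 under median centring). Tnfrsf26, an orphan receptor next to it in the genome, was higher (0.86 ± 0.06, adjusted p = 3.8e-04; 1.45 under median centring). Tnfrsf23, a close copy of Tnfrsf22, was well above background on 1 array in Cy3 and on 3 in Cy5 and was not tested, and cross-hybridisation between these copies was not tested. Tnfrsf11b, the soluble RANK ligand trap osteoprotegerin, differed by 0.24 ± 0.10 and was not called (adjusted p = 0.085). It was called higher without in vitro prep 1 (0.36) and under median centring (0.28).

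Of the other receptors, Relt, an orphan receptor of lymphoid tissue, gave log2 ratios of -1.42, -1.42, -1.47 and -1.32. Its levels were 9.98 and 10.03 in the thymic and 8.58 and 8.62 in the in vitro preps. The difference was -1.41 ± 0.06 (adjusted p = 8.5e-05), or 2.65-fold, and lay at -0.91 under median centring. Tnfrsf12a (Fn14), the receptor of TWEAK, was lower by -0.92 ± 0.08 (adjusted p = 6.7e-04) and lay at -0.47 under median centring. Tnfrsf11a (RANK) and Tnfrsf19 (TROY) differed by 0.14 and -0.13 and were not called.

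Among the ligands Tnfsf11, RANK ligand, through which T cells act on osteoclasts and medullary thymic epithelium, was at least 2-fold higher on both probes. Probe A_51_P465640 gave log2 ratios of 0.90, 1.76, 1.44 and 1.73, and A_52_P488947, 221 bases 3' of it, gave 1.25, 1.60, 1.37 and 1.70. All 8 values were above zero, and with both probes the arrays with in vitro prep 2 were the higher ones. On the first probe the levels were 8.04 and 7.83 in the thymic preps and 9.25 and 9.53 in the in vitro preps. The differences were 1.46 ± 0.20 (adjusted p = 2.9e-03) and 1.48 ± 0.12 (adjusted p = 5.2e-04), or 2.75-fold and 2.80-fold. Stromal cells are also known to make RANK ligand, and the OP9 stroma list was higher in the in vitro preps (summed level 10224 to 12755 against 1399 to 1469). Its part in this difference was not tested.

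Tnfsf4, OX40 ligand, gave log2 ratios of 0.31, 0.77, 0.32 and 0.79, and its Cy3 signal was on no array well above background. Arrays with in vitro prep 2 were higher than those with in vitro prep 1. With this processing the level was at least 1.46-fold higher in the in vitro cells, taking the dim channel's mean from each array's lowest signal well above background or the probe's own signal, whichever was higher (fitted difference 0.55 ± 0.16, adjusted p = 0.034). The probe's own signal was the higher, so that the bound equals the fitted fold of 1.46. Such bounds hold for this processing only and are open to dye bias. With Agilent's processed signals the fitted difference was 2.01 and was not called (adjusted p = 0.059). The call was also lost under median centring (0.43), with the background model on all spots (0.48), and without thymic prep 1 (0.55) or thymic prep 2 (0.54).

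Tnfsf13b (BAFF) was higher on both probes. Probe A_52_P365480 was above background in both channels and differed by 0.54 ± 0.08 (adjusted p = 4.3e-03), and lost its call without thymic prep 1 (0.52, adjusted p = 0.052). Probe A_51_P257934 stood well above background on no array in Cy3, and there the level was at least 1.29-fold higher with this processing, which again equals the fitted fold (difference 0.36, adjusted p = 5.2e-03). The latter lay at 1.31 with Agilent's processed signals, and its call was lost with the background model on all spots (0.29) and without thymic prep 1 (0.34) or thymic prep 2 (0.38).

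Tnfsf9 (4-1BB ligand) was the only ligand called lower (-0.28 ± 0.06, adjusted p = 0.013). The call was lost with the background model on all spots (-0.22) and without thymic prep 1 (-0.26) or thymic prep 2 (-0.30), and with Agilent's processed signals the difference was -0.68. Tnfsf8 (CD30 ligand) gave -0.03, 0.74, -0.13 and 0.56, which followed the in vitro prep: the level was 8.96 in in vitro prep 1 and 9.70 in in vitro prep 2, against 8.97 and 9.12 in the thymic preps. It was not called (0.29 ± 0.24, adjusted p = 0.37), and it was called higher without in vitro prep 1 (0.65) and under median centring (0.78). Over all tested probes the difference between the in vitro preps had an SD of 0.19 on the log2 scale, and that between the thymic preps 0.11.

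Tnfsf10 (TRAIL), Tnfsf14 (LIGHT), Tnfsf15 (TL1A) and Cd70, the ligand of CD27, differed by -0.22, -0.12, -0.11 and 0.06 and were not called. Tnfsf10 and Tnfsf15 were called lower with Agilent's processed signals (-0.38 and -0.32), Tnfsf10 also without in vitro prep 2 (-0.30), and Tnfsf14 and Cd70 higher under median centring (0.41 and 0.22). Tnfsf12 (TWEAK) and Tnfsf18 (GITR ligand) stood well above background on no array, and Tnfsf13 (APRIL) was so on 1 array in each channel. These 3 ligands were not tested. A further 4 untested probes belonged to Tnfrsf10b, Tnfrsf11a, Tnfrsf19 and Tnfrsf21, each of which had another probe that was tested. Psmg2, which the name rule brought in, gave -0.37, -0.20, -0.39 and -0.23 on probe A_51_P338515, which was called lower (-0.30), and -0.07, 0.15, -0.10 and 0.04 on probe A_52_P403352, which was not called. Under median centring both its probes were called higher (0.47 and 0.65).

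Receptors and their ligands are set side by side here by known binding. Tnfrsf25 was lower on both probes (-4.15 and -0.92) and its ligand Tnfsf15 was not called (-0.11). Tnfrsf9 was lower on probe A_52_P210511 (-1.47) and not called on its other probe (-0.09), and Tnfsf9 was called lower (-0.28). Tnfrsf4 was lower (-0.23) and Tnfsf4 higher (0.55), but under median centring Tnfrsf4 was called higher and Tnfsf4 was not called. Tnfrsf13c was lower (-1.63) and Tnfsf13b higher on both probes (0.54 and 0.36). Tnfsf11 was higher (1.46 and 1.48), while its receptor Tnfrsf11a (0.14) and its trap Tnfrsf11b (0.24) were not called. In the pairs Cd27 and Cd70 and Tnfrsf8 and Tnfsf8 the receptor was called higher (0.34 and 0.40) and the ligand was not called. Tnfrsf14 and Tnfrsf10b were lower, and their ligands Tnfsf14 and Tnfsf10 were not called. Unless stated otherwise these are the calls with loess. Under median centring Cd70, Tnfsf8, Tnfsf14 and Tnfrsf11b were called higher, and with Agilent's processed signals Tnfsf10 and Tnfsf15 were called lower.

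By RefSeq order with no protein-coding gene between, Tnfrsf1b (-1.89, and -0.09 on its uncalled probe) lies beside Tnfrsf8 (0.40), and Tnfrsf26 (0.86) beside Tnfrsf22 (-0.74). Tnfrsf4 (-0.23) and Tnfrsf18 (-0.88), which are also adjacent, were both called lower with loess, and neither was called lower under median centring. On chromosome 17 the ligands Tnfsf9 (-0.28), Cd70 (0.06) and Tnfsf14 (-0.12) follow each other, and on chromosome 4 Tnfsf15 (-0.11) and Tnfsf8 (0.29). Chromosome 4 holds 9 of the 34 family genes.

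**Figure D3:**
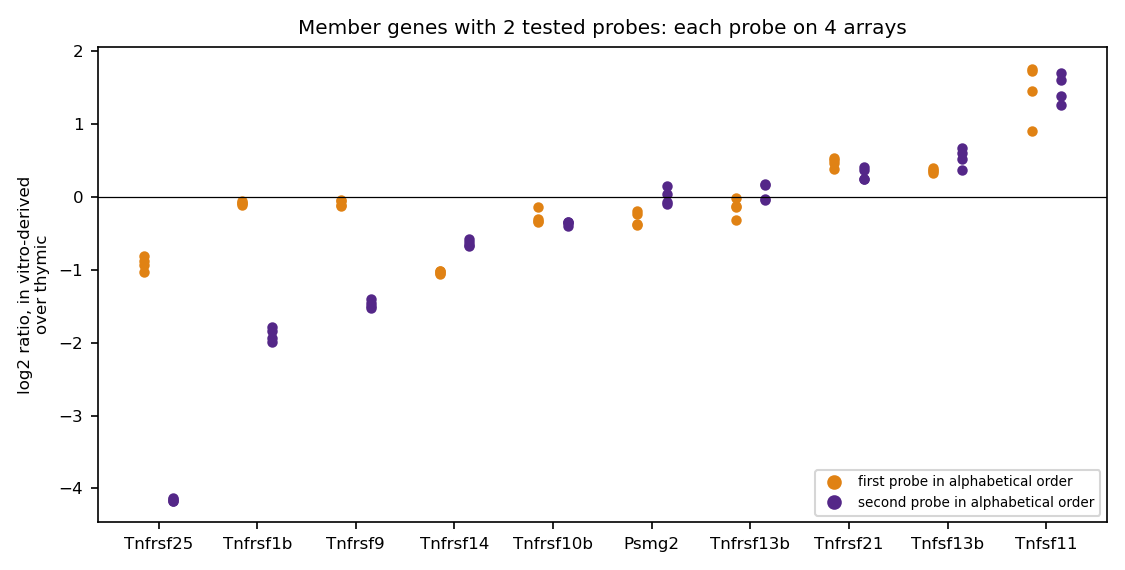
Log2 ratio on each of the 4 arrays (points) for the 10 member genes with 2 tested probes, with the probes coloured by alphabetical order. The probes of Tnfsf11 and of Tnfsf13b lie close to each other, and those of Tnfrsf25, Tnfrsf1b and Tnfrsf9 lie over 1 log2 unit apart.

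Of 10 member genes with 2 tested probes, 6 had both called in the same direction (Tnfrsf25, Tnfrsf14 and Tnfrsf10b lower, Tnfrsf21, Tnfsf11 and Tnfsf13b higher). In Tnfrsf1b, Tnfrsf9 and Psmg2 a called probe stood beside an uncalled one, and in Tnfrsf13b neither was called. With loess no gene of the family had probes called in opposite directions, while under median centring those of Tnfrsf1b were. The differences between probes of a gene are given as values and were not tested.

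The members of the superfamily that carry other names included some of the largest decreases. Of 11 tested probes of this list (11 genes and 16 probes on the array), 5 were lower and 1 higher (25.6% and 26.6% of all tested probes), with a median log2 difference of -0.09. Under median centring, where 19263 of 27224 tested probes were called, 83.6% of them higher, 7 of the 11 were lower and 2 higher. With the filter on both channels 4 were lower and 0 higher. The 1 higher probe, of Ltbr, passed the filter only through the in vitro channel, where it was high. Lta (lymphotoxin alpha) gave log2 ratios of -2.25, -2.57, -2.28 and -2.55 (-2.41 ± 0.11, adjusted p = 9.0e-05) and Ltb (lymphotoxin beta) -1.46, -1.74, -1.47 and -1.76 (-1.61 ± 0.11). Tnf itself, which lies between them in the genome, gave -1.78, -1.67, -1.19 and -0.93 (-1.39 ± 0.22, adjusted p = 4.8e-03). For Lta and Ltb the arrays with in vitro prep 2 were the lower ones, and for Tnf those with thymic prep 1. Ltb lay at -0.33 under median centring.

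Fas, the death receptor of activated T cells, was lower on probe A_51_P345393 (-0.91 ± 0.06) and not called on probe A_52_P73385 (-0.01), where the ratios of 0.27, -0.32, 0.34 and -0.32 followed the in vitro prep. The first lay at -0.21 under median centring. Fasl, its ligand, stood well above background on no array in Cy5 with probe A_52_P77106, and was at least 1.26-fold lower there with this processing, which equals the fitted fold (difference -0.34, adjusted p = 5.9e-03). This call was lost with the background model on all spots (-0.26), without thymic prep 1 (-0.34) and without thymic prep 2 (also -0.34), while with Agilent's processed signals the difference was -1.37. Its other probe was not called (-0.07). Ltbr, the lymphotoxin beta receptor, which stromal and myeloid cells carry rather than lymphocytes, stood well above background on no array in Cy3 and was at least 1.62-fold higher in the in vitro preps with this processing (fitted difference 0.77). It lay at 3.33 with Agilent's processed signals, at 1.32 with a normexp offset of 16 and at 0.60 with the background model on all spots (adjusted p = 0.049). Cd40lg stood well above background on no array and was not tested.

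**Figure D4:**
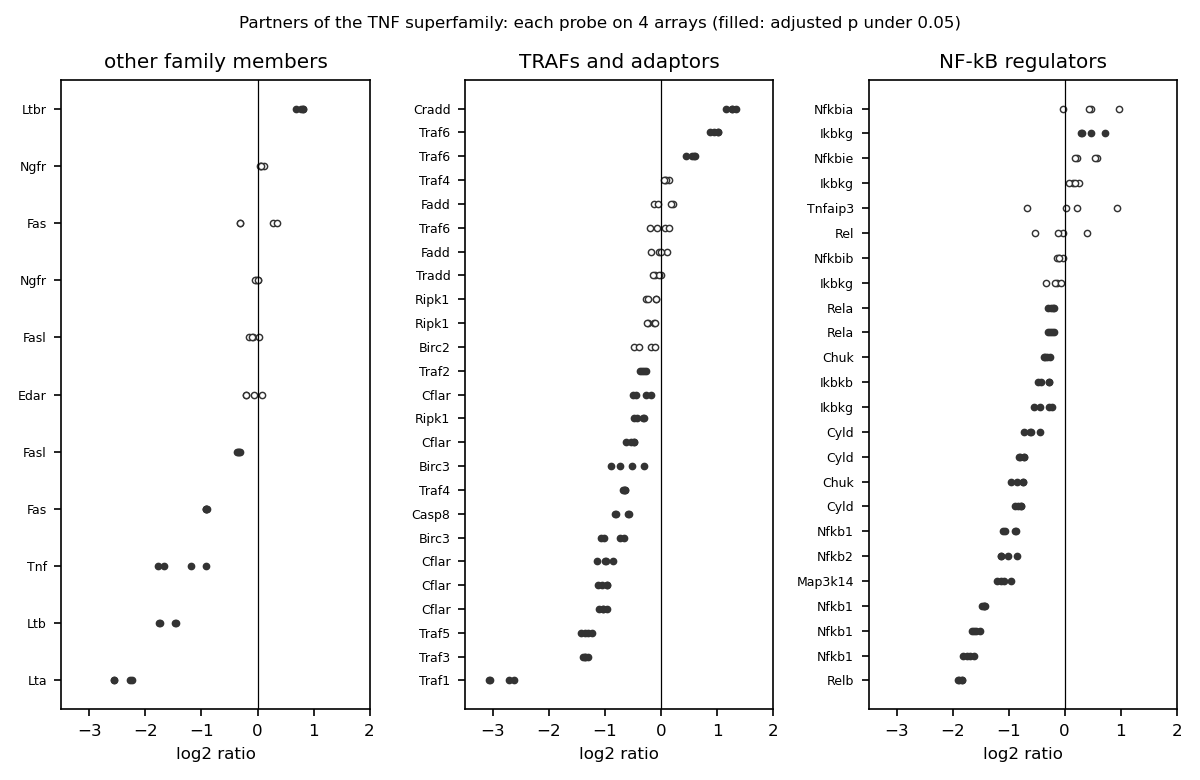
Log2 ratio, in vitro-derived over thymic, on each of the 4 arrays (points) for every tested probe of the superfamily members with other names (left), the TRAF proteins and adaptors (middle) and the NF-kB regulators (right), with filled points where the adjusted p was under 0.05. Lta, Traf1 and Relb lie at the lower end of their lists (-2.41, -2.87 and -1.86).

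Of the proteins that bind the receptors from within the cell, 14 of 25 probes (14 genes, all tested) were lower and 3 higher, with a median of -0.35, against 25.6% and 26.6% of all tested probes. Traf1, an adaptor of TNF receptor 2 and 4-1BB that NF-kB itself induces, gave log2 ratios of -2.62, -3.08, -2.72 and -3.05 (-2.87 ± 0.14, adjusted p = 1.0e-04). Traf3 (-1.36 ± 0.06) and Traf5 (-1.33 ± 0.07) were lower, as was Cflar, the caspase-8 inhibitor FLIP (-1.03 on the probe with the largest change). Traf2 was lower with loess (-0.32) and higher under median centring (0.41). Cradd, a death domain adaptor (1.26 ± 0.07), and 2 of 3 probes of Traf6, which also serves Toll-like receptors (0.96 and 0.55), were higher. Tradd (-0.07) and both Fadd probes (0.06 and -0.02) were not called, and under median centring these 3 were called higher (0.78, 0.60 and 0.29). With that setting 19263 of all 27224 tested probes were called, 83.6% of these calls were higher, and the median of all tested probes was 0.37. Under median centring the list counted 11 higher and 5 lower, and without a thymic prep the lower probes fell from 14 to 10 (prep 1) or 11 (prep 2).

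Of the NF-kB list, 16 of 24 probes (14 genes, all tested) were lower and 1 higher, with a median of -0.37, against 25.6% and 26.6% of all tested probes. Relb, the subunit of the pathway downstream of lymphotoxin beta receptor and BAFF receptor, gave log2 ratios of -1.82, -1.89, -1.84 and -1.90 (-1.86 ± 0.06). Nfkb1, the p105 and p50 subunit, was lower on its 4 probes (-1.72, -1.59, -1.45 and -0.98). Under median centring the last of these, A_51_P283759, lay at -0.25 and was not called, while the others were still called lower. The 1 probe called higher was of Ikbkg (0.45), which has 4 probes, of which another was called lower (-0.37). The former was above background on 2 arrays in Cy3, is left out by the filter on both channels, and was not called without thymic prep 1 (0.51), thymic prep 2 (0.38) or in vitro prep 1 (0.50). Under median centring, where 19263 of 27224 tested probes were called, 83.6% of them higher, the list counted 10 higher and 8 lower. Relb then lay at -1.20. Without thymic prep 1, and likewise without thymic prep 2, 11 probes were lower.

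**Figure D5:**
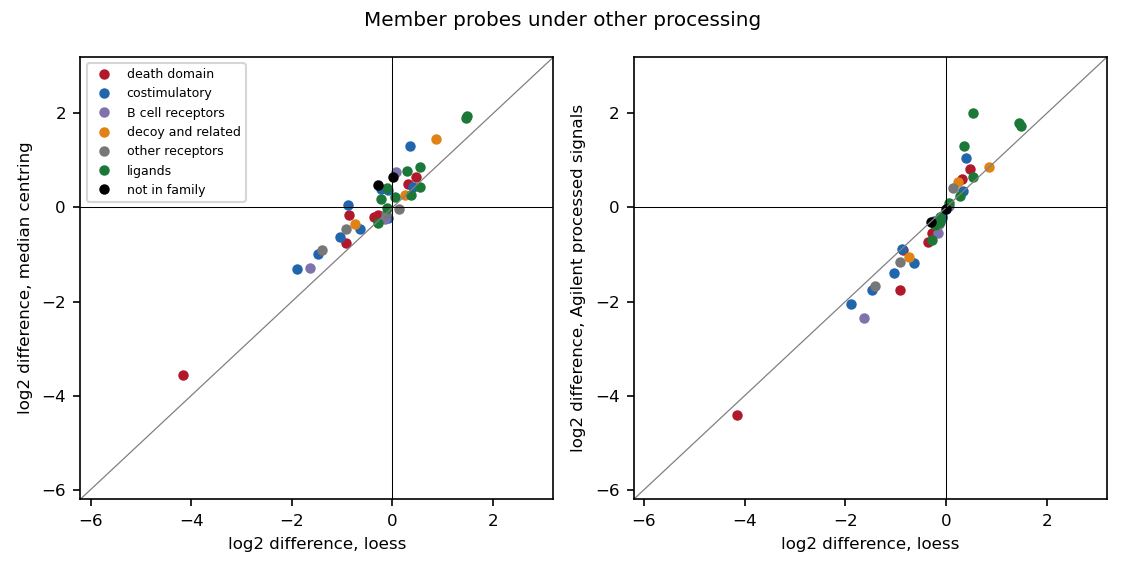
Log2 difference of each of the 40 tested member probes with loess (horizontal) against median centring (left) and against Agilent's processed signals (right), coloured by role, with the diagonal of equal values. Under median centring most probes lie above the diagonal, and Tnfrsf4 and Tnfrsf18 cross zero. With Agilent's signals Tnfsf4 lies farthest above it (2.01 against 0.55).

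Among the tested member probes Cd27 and Tnfrsf18 moved most under median centring, from 0.34 to 1.30 and from -0.88 to 0.047. With Agilent's processed signals Tnfsf4 moved most, from 0.55 to 2.01, followed by the Tnfsf13b probe that was not above background in Cy3, from 0.36 to 1.31. The probes with the largest decreases of Tnfrsf25, Tnfrsf1b, Tnfrsf13c, Tnfrsf9, Relt and Tnfrsf14 were called lower, and both Tnfsf11 probes higher, with every alternative in which they were tested.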

How the data were processed

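Total RNA (1 ug) of each prep was amplified and labelled, per the labels' protocols. The authors deposited spot intensity values of each channel, and per the file headers the scans were read with Agilent Feature Extraction 9.5.1.1, a tool that the submitters' processing notes also name. Their deposited series table holds log10 ratios of Cy5 over Cy3, which matched the scanner's own log ratio (correlation at least 0.9999), with a median of 0 on each array, and 6119 to 7234 probes are listed at exactly 0. The sources used here do not give the build behind the array's coordinates.

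Mean signals were background-corrected with limma 3.58.1 in R 4.3.3 (normexp, offset 50) after 133 to 187 marked spots per array were left out, a step chosen after the data had been seen, and were loess-normalized within arrays. Spots of a probe were averaged. Levels are log2 channel values after loess and Aquantile normalization. A probe was tested where at least 1 channel stood well above background on each array. The 4 ratios gave 4 prep values, whose difference was fitted by lmFit with eBayes moderation (degrees of freedom: 2 residual, 3.19 prior) and adjusted over all 27224 tested probes. The fit was tested on simulated data. With 2 preps of each kind an exact permutation test cannot give a p under 0.333, and the number of arrays limits the precision.

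Names were updated through RefSeq accessions (44 of 49 member probes matched). Array values are given for genes called at least 2-fold or with tested probes that differ in call or direction. Other tested members are given by their difference and untested ones by detection. From each further list at most 4 called probes in each direction are named, besides defining genes fixed with the list and other probes of a gene so named. The members, lists, markers and motifs were chosen with earlier results of these data known. The prep numbers are not said to pair the preps (correlation of same-numbered preps 0.13, from 2 pairs). The alternatives were other background, normalization, signal, filter and probe rules, left-out preps and arrays, and the prep number as a block.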

Additional observations from a re-analysis of the deposited data

Results flagged for a closer look

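Among the 40 tested member probes, each with 4 arrays, 1 value stood apart from the other 3. The Tnfsf9 ratio on array 4 was -0.22 on the log2 scale, against -0.30, -0.31 and -0.30 on arrays 1 to 3, and its gap to the nearest of them took up 0.918 of the whole range, above Dixon's critical value for 4 values. Chance flags about 1 in 20 such groups.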

How the results depend on the processing

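Median centring reversed Tnfsf14 (0.41), Tnfrsf1b on probe A_51_P278282 (0.36), Psmg2 on probe A_51_P338515 (0.47), Tnfrsf18 (0.047, not called) and Tnfrsf4 (0.39). It gave 18 member probes called higher in place of 10, and 16110 higher and 3153 lower calls among all probes in place of 7245 and 6974. With the background model on all spots 5 member probes and 4705 of all probes were higher, and with marked spots kept 5 and 4729. Without single preps or arrays the higher member calls ranged from 4 to 12 and the lower ones from 12 to 18, and those of all probes from 4143 to 7258 and from 4018 to 6816. The lowest values came without a thymic prep, where 11 of the 40 member probes lost their call in each case. A kind left with 1 prep was assumed to vary like the other. The cause of these changes was not tested. With the replicate block by prep number 7581 probes were higher and 7086 lower, 13791 of the 14667 calls were shared with the fit without it, and the members kept 10 higher and 17 lower calls, with all 40 on the same side of the threshold. Aquantile scaling changes no ratio by construction. No called member changed direction under the other settings. Signal over background limits Tnfsf4 and the Tnfsf13b probe A_51_P257934 to bounds, and left 9 member probes untested.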
